A study of Mus musculus with 24 samples.

Results

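The comparison described here is the difference between the FVB and C57 strains in how the cortex transcriptome changed with CBE, that is, the change (CBE minus PBS) in FVB minus the change in C57. It was taken over 12 of the 24 arrays of the series, 6 from FVB and 6 from C57, and over all 22180 genes that had a probe set with 1 gene symbol. The 4 groups held 3 arrays each: FVB mice given CBE, FVB mice given phosphate-buffered saline (PBS), C57 mice given CBE and C57 mice given PBS. CBE (conduritol B epoxide) blocks acid beta-glucosidase, the lysosomal enzyme lost in Gaucher disease, and here it was injected intraperitoneally at 25 mg/kg per day from postnatal day 8 to 18. All mice were male and 18 days old, and the labels name no transgene or mutant allele, so that the model is chemical and not genetic. The C57 animals were of the C57BL/6JOlaHsd substrain, which is known to carry a deletion that includes Mmrn1. Mmrn1 lay near the lower end of the scale in FVB as in C57 arrays and so could not serve as a check of the strain labels. The labels do not say whether an array stands for 1 mouse or a pool, so the p-values measure the spread between these 12 samples.

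The loss of acid beta-glucosidase activity leaves glucosylceramide and its deacylated form in lysosomes, and the brain answers with activated microglia, reactive astrocytes and a type I interferon response. Interferon binds surface receptors whose signal, carried in part by STAT2 and IRF9, switches on antiviral effectors, the Isg15 system and chemokines. Chemokines such as Cxcl9, Cxcl10 and Cxcl11 call CXCR3-bearing lymphocytes, whereas Cxcl13 calls B cells through CXCR5. Inbred strains carry different alleles of many immune genes, and strain is a classic modifier of such responses.

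Array medians lay between 4.16 and 4.21 on the deposited log2 scale, on which the median of all probe sets was 4.19. Pearson correlations over all probe sets were 0.989 to 0.992 between arrays of 1 group and 0.981 to 0.987 between strains. Markers of excitatory cortical neurons had a mean log2 signal of 8.93 to 8.99 in FVB CBE, 8.88 to 9.08 in FVB PBS, 8.77 to 9.10 in C57 CBE and 8.91 to 9.13 in C57 PBS arrays, well above the median of all probe sets. Markers of T and B lymphocytes averaged 3.49 to 3.62 over the 12 arrays, below the median of all probe sets.

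The strains shared many of the genes that rose and differed past the test in 2 chemokines, Cxcl13 and Cxcl11, whose change was larger in FVB. By limma with Benjamini-Hochberg adjustment these were the 2 genes of 22180 (0.00902%) that passed the threshold of 0.05 for the difference, both positive. No gene passed with a negative difference, although 657 genes (2.96%) had a negative and 555 (2.5%) a positive difference at an unadjusted p under 0.05, 5.46% in all. An ordinary linear model on the same arrays called 1 gene, Cxcl11, and 24 arrays sharing 1 spread called 1, Cxcl13. The count depended on 1 library: without C57 CBE array 1 it was 6, with Serpina3n, Gpnmb, Ddx58 and Clec7a added, all with negative differences. The median standard error of a difference was 0.132, against 0.093 for a change within a strain, and 25 genes had a difference of 1 or more in size.

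Within strains, CBE raised 60 genes (0.271%) and lowered 1 (0.00451%) in FVB, 0.275% in all. It raised 105 genes (0.473%) and lowered 2 (0.00902%) in C57, 0.482% in all. The gene lowered in FVB was Kirrel2, named after its value was seen, and those lowered in C57 were Rxfp2, which encodes a relaxin family receptor, and Nup133, a nuclear pore gene also named after its value was seen. Of the 61 genes called in FVB 72.1% were also called in C57, and of the 107 called in C57 41.1% were also called in FVB. These 44 shared genes all rose in both strains, with a median log2 change of 1.26 in FVB and 1.38 in C57. The change was larger in FVB in 13 of them and larger in C57 in 31. The FVB count was 38 without FVB CBE array 1, 29 without FVB CBE array 2 and 35 without FVB PBS array 2. The C57 count was 67 without C57 PBS array 1 and 68 without C57 PBS array 2. Across all genes the FVB and C57 changes had a Pearson correlation of 0.351, a description over 22180 genes measured on the same arrays, which are not independent replicates.

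C57 CBE array 1 had the lowest change of the 3 C57 CBE arrays in 38 of the 44 shared genes. The mean log2 change over these genes was 1.19, 1.40 and 1.20 in FVB CBE arrays 1 to 3, and 1.23, 1.47 and 1.72 in C57 CBE arrays 1 to 3. The part of this array in each difference was not tested beyond the fits without it.

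**Figure D1:**
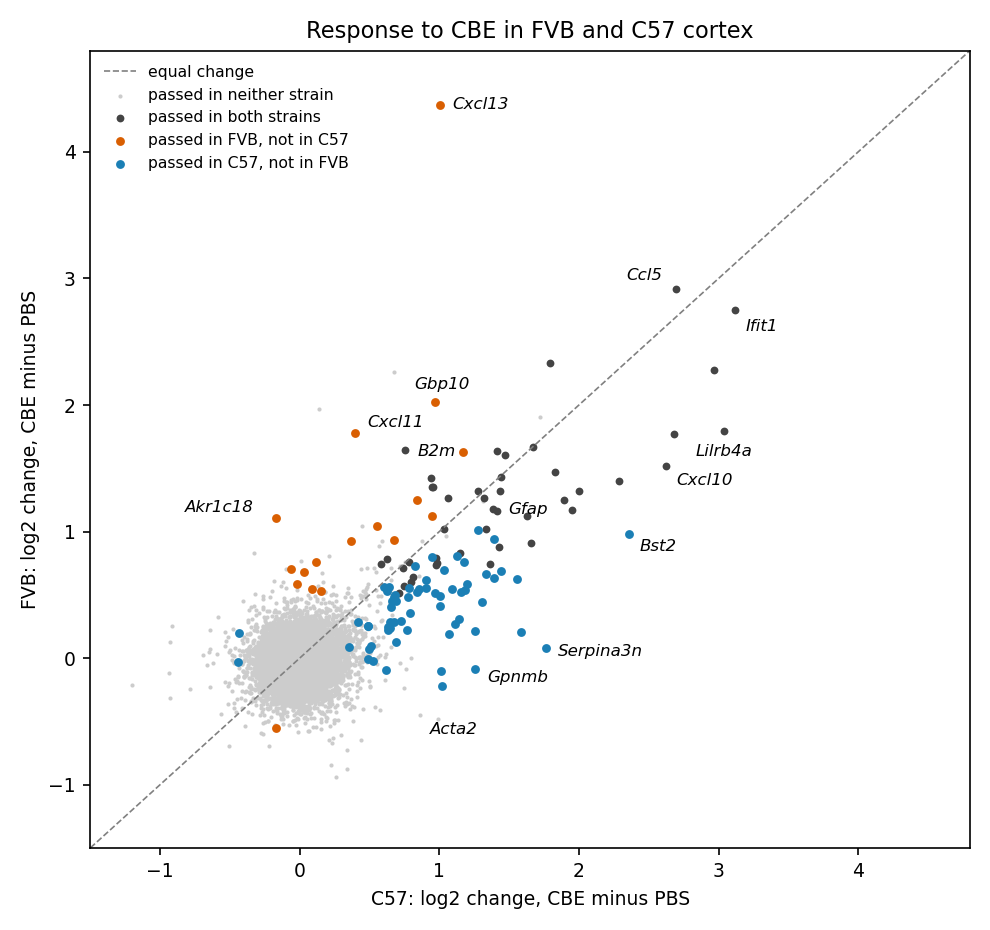
Change with CBE in FVB (vertical axis, log2, CBE minus PBS) against the change in C57 (horizontal axis, log2) for the 22180 genes, each point 1 gene. Cxcl13 and Cxcl11 lie far above the line of equal change, at 4.37 and 1.78 in FVB against 1.00 and 0.39 in C57, whereas Serpina3n and Gpnmb lie below it, near 0 in FVB and at 1.76 and 1.25 in C57.

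The promoters shown are those of Cxcl13, the chemokine with the largest difference, of Cxcl10, an interferon-inducible chemokine on the same chromosome, and of Serpina3n and Gpnmb, which had the smallest p-values among negative differences. Cxcl11, the other gene called for the difference, had no promoter in the source used and is not shown. The stretches run from 250 bases before to 50 bases after the start in RefSeq's GRCm38.p6 table and are written 5′ to 3′ on the gene's strand. They are chr5:95956689-95956988 (plus strand) for Cxcl13, chr5:92348840-92349139 (minus strand) for Cxcl10, chr12:104406458-104406757 (plus strand) for Serpina3n and chr6:49036268-49036567 (plus strand) for Gpnmb. Capitals mark matches, on either strand, to an interferon-stimulated response element (GAAA, any 2 bases, GAAA) or to an NF-kB motif (GGGA, any 4 bases, CC). No match to the one overlaps a match to the other.
Cxcl13: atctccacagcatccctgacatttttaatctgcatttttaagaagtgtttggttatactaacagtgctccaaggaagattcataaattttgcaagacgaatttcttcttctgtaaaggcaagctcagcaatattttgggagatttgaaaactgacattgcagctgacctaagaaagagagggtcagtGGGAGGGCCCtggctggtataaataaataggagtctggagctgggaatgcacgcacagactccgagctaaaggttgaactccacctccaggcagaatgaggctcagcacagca
Cxcl10: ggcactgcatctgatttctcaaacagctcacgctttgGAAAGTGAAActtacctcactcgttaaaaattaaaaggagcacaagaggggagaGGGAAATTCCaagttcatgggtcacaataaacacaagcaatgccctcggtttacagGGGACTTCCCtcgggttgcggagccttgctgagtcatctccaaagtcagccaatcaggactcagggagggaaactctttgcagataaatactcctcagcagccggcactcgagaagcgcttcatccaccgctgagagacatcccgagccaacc
Serpina3n: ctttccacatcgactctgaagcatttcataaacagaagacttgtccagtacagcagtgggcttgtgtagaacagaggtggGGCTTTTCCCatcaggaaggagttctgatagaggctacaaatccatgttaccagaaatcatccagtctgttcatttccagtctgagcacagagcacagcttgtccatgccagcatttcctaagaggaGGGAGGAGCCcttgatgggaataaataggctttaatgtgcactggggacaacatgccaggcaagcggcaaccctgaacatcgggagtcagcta
Gpnmb: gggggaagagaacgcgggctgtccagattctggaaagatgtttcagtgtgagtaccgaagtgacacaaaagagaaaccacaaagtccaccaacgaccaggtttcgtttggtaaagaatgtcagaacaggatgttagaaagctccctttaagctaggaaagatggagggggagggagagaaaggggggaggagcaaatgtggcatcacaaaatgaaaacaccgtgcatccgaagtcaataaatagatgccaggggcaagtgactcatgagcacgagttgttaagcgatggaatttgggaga

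Cxcl10 held 1 match to the response element, 213 bases before the start, and NF-kB matches at 159 and 103 bases before it. Cxcl13 held 1 NF-kB match, 63 bases before the start, and Serpina3n held such matches at 170 and 43 bases before it. Gpnmb held no match to these motifs, nor to a GAS element (TTCNNNGAA) or an E-box (CACGTG). Of 32851 promoters of this length, 3.44% held the response element, 20.7% the NF-kB motif, 8.3% the GAS element and 7.15% the E-box. The sequence is that of the reference strain, and FVB alleles are not analysed here.

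The chemokines Cxcl13 and Cxcl11 passed the test of the difference, both with a larger change in FVB. Cxcl13, the B cell attractant, had a log2 signal of 8.51, 9.49 and 8.61 in FVB CBE arrays, against 4.55, 4.35 and 4.59 in FVB PBS arrays. It had 5.46, 5.87 and 6.39 in C57 CBE arrays, against 4.69, 4.96 and 5.06 in C57 PBS arrays. CBE and PBS arrays did not overlap in either strain, and every FVB CBE array lay over 2 log2 units above every C57 CBE array. The gene rose 20.7-fold in FVB (log2 4.37, adjusted p = 1.29e-06), against a log2 change of 1.00 in C57 that did not pass (adjusted p = 0.151). The difference was 3.37 ± 0.35 (SE, 95% interval 2.63 to 4.12, adjusted p = 0.00227), which is a 10.4-fold larger change in FVB. The log2 change was 1.54 in SV129 and 0.65 in C3H, the other strains of the series. The C3H mean includes C3H CBE array 1, known from an earlier account of these data to stand apart from its replicates.

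Cxcl11, a CXCR3 ligand, had a log2 signal of 5.76, 5.74 and 5.92 in FVB CBE arrays, against 3.89, 4.11 and 4.10 in FVB PBS arrays. It had 4.25, 4.31 and 4.45 in C57 CBE arrays, against 3.89, 3.95 and 3.99 in C57 PBS arrays. All CBE arrays of a strain lay above its PBS arrays, and the FVB CBE arrays stood alone above the rest. The gene rose by 1.78 on the log2 scale in FVB, against 0.39 in C57 that did not pass (adjusted p = 0.0794). The difference was 1.38 ± 0.12 (SE, 95% interval 1.12 to 1.64, adjusted p = 0.000672). It did not pass when 24 arrays shared the spread (adjusted p = 0.318 by limma). The log2 change of Cxcl11 was 0.21 in SV129 and 0.92 in C3H, with C3H CBE array 1 included. C57BL/6 mice are known to carry a frameshift in Cxcl11, and RefSeq lists the gene as a transcribed pseudogene in that strain's genome. The array measures the transcript and says nothing of a protein.

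Cxcl10, another CXCR3 ligand, had a negative difference that did not pass. Its log2 signal was 4.83, 5.38 and 5.38 in FVB CBE arrays, against 3.72, 3.69 and 3.62 in FVB PBS arrays. In C57 it was 5.95, 6.39 and 7.15 in CBE arrays, against 3.83, 3.73 and 4.06 in PBS arrays. The gene rose in both strains, by 1.52 in FVB and 2.62 in C57, and the C57 CBE arrays lay above all FVB CBE arrays. The difference was -1.10 ± 0.33 (SE, adjusted p = 0.766, 95% interval -1.81 to -0.40). Cxcl9, the third CXCR3 ligand, was added after its values were seen: it had 7.33, 5.25 and 4.85 in FVB CBE arrays, against 3.40, 3.62 and 3.64 in FVB PBS arrays, and 4.65, 4.09 and 4.38 in C57 CBE arrays, against 3.60, 3.85 and 3.64 in C57 PBS arrays. FVB CBE array 1 was far higher than the other two, and the difference of 1.58 ± 0.62 (SE) did not pass (adjusted p = 0.856).

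Of 24 measured chemokine and receptor genes, 6 rose in FVB and 5 in C57, against 0.271% and 0.473% of all genes. These shares are those to set beside every count of raised genes in the lists below. The median difference was -0.02, against 0.001 for all genes. Ccl5, which attracts T cells, rose by 2.92 in FVB and 2.70 in C57, with a difference of 0.22 (95% interval -0.72 to 1.16). That sign turned without C57 PBS array 3, which at 6.04 stood above the other C57 PBS arrays at 4.38 and 4.52, and the difference was then -0.31. Ccl3, a macrophage-derived attractant, rose by 1.40 in FVB and 2.28 in C57, with a difference of -0.88 that did not pass (adjusted p = 0.675).

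**Figure D2:**
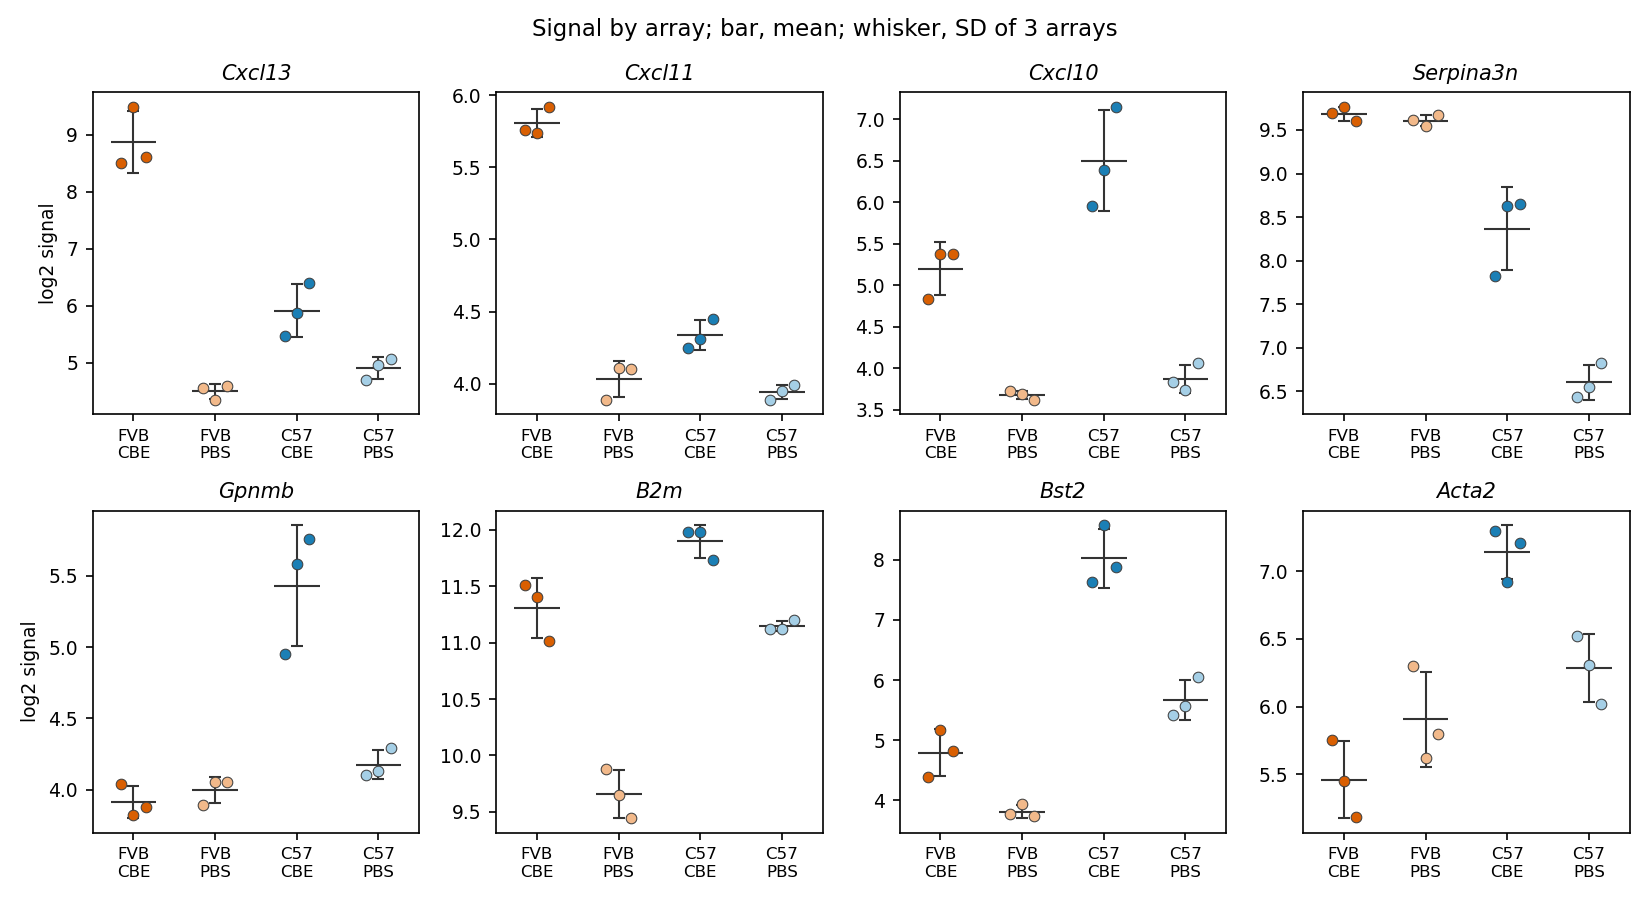
Log2 signal of 8 genes on each of the 12 arrays (points), with the mean (bar) and SD of the 3 arrays of a group (whisker), the groups running FVB CBE, FVB PBS, C57 CBE and C57 PBS. Cxcl13 and Cxcl11 are highest in FVB CBE, Serpina3n is high in all 6 FVB arrays, and Gpnmb stands out in C57 CBE alone.

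Serpina3n and Gpnmb were the genes nearest to the threshold with a larger change in C57. Serpina3n, a secreted protease inhibitor and marker of reactive astrocytes, had a log2 signal of 9.70, 9.76 and 9.60 in FVB CBE arrays, against 9.61, 9.54 and 9.67 in FVB PBS arrays. In C57 it had 7.82, 8.63 and 8.65 in CBE arrays, against 6.44, 6.55 and 6.83 in PBS arrays. It was already high in FVB mice given PBS, 7.99-fold above C57 mice given PBS, and the FVB groups overlapped. It rose by 1.76 in C57 (adjusted p = 0.000209), against a log2 change of 0.08 in FVB (adjusted p = 0.964). The difference was -1.68 ± 0.25 (SE, 95% interval -2.22 to -1.14), and it did not pass (adjusted p = 0.0912). It passed without C57 CBE array 1 (adjusted p = 0.000197), with a replicate block within strain (0.0299), and with 24 arrays less C3H CBE array 1 (0.0063).

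Gpnmb, a transmembrane glycoprotein known from lipid-laden macrophages in Gaucher disease, had a log2 signal of 4.04, 3.82 and 3.88 in FVB CBE arrays, against 3.89, 4.05 and 4.05 in FVB PBS arrays. It had 4.95, 5.58 and 5.76 in C57 CBE arrays, against 4.10, 4.13 and 4.29 in C57 PBS arrays. It thus lay below the median of all probe sets in every FVB array, and the FVB groups overlapped. It rose by 1.25 in C57 (adjusted p = 0.00136), against -0.09 in FVB, and the difference of -1.34 ± 0.22 (SE) did not pass (adjusted p = 0.199). It passed without C57 CBE array 1 (adjusted p = 0.000547) and with 24 arrays less C3H CBE array 1 (0.00717). The log2 change was 2.03 in C3H and 0.14 in SV129 for Serpina3n, and 1.63 in C3H and 0.01 in SV129 for Gpnmb. These C3H means also include C3H CBE array 1, which stands apart from its replicates.

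Of 32 measured antiviral effectors of the interferon response 7 rose in FVB and 20 in C57, against 0.271% and 0.473% of all genes. Of the 32, 12 were called in neither strain, and the median log2 change was 0.50 in FVB and 0.82 in C57. At an unadjusted p under 0.05 by limma, 23 had a positive change in FVB and 28 in C57. Over all genes these shares were 3.29% and 3.46%. An ordinary linear model called 1 of the 32 in FVB and 6 in C57. The difference was negative for 26 of the 32 and its median was -0.315, against 0.001 for all genes. In 12 of the 32 every FVB change lay below every C57 change, and in 0 above, against 10.9% of all genes below and 10.8% above. The mean log2 signal of the list was 4.99 to 5.19 in FVB CBE, 4.39 to 4.46 in FVB PBS, 5.63 to 5.95 in C57 CBE and 4.74 to 4.90 in C57 PBS arrays. None of its members passed for the difference by limma, and 9 had a negative difference at an unadjusted p under 0.05, against 2.96% of all genes.

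Ifit1, which binds foreign RNA caps, rose by 2.75 in FVB and 3.12 in C57, with a difference of -0.37 (95% interval -1.01 to 0.28). Bst2, which tethers budding virions, had a log2 signal of 4.38, 5.16 and 4.82 in FVB CBE arrays, against 3.76, 3.93 and 3.73 in FVB PBS arrays, and 7.63, 8.58 and 7.88 in C57 CBE arrays, against 5.41, 5.56 and 6.05 in C57 PBS arrays. It rose by 2.36 in C57, against 0.98 in FVB that did not pass (adjusted p = 0.192), and its level in FVB given CBE stayed below C57 given PBS. Oas1g, of the 2-5A synthetase family, rose by 1.07 in C57, against 0.19 in FVB. Rsad2 (viperin) rose in both, by 0.74 in FVB and 1.36 in C57, and Parp14 rose by 1.44 in C57, against 0.68 in FVB that did not pass.

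In the Isg15 system 3 of 6 genes rose in FVB and 4 of 6 in C57, and the median difference was -0.304. Isg15, the ubiquitin-like modifier, rose by 1.47 in FVB and 1.83 in C57. Usp18, the protease that removes Isg15, rose by 1.77 in FVB and 2.68 in C57. Ube2l6, the conjugating enzyme, was not called in either strain, with log2 changes of -0.04 in FVB and 0.72 in C57.

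Among sensors of nucleic acids and microbes 1 of 18 rose in FVB and 6 in C57, and the median difference was -0.056. At an unadjusted p under 0.05 by limma, 8 of the 18 had a positive change in FVB and 11 in C57. Over all genes these shares were 3.29% and 3.46%. An ordinary linear model called 0 of the 18 in FVB and 2 in C57. Ddx58, which encodes the RNA sensor RIG-I, had a log2 signal of 4.88, 5.0 and 5.06 in FVB CBE arrays, against 4.61, 4.50 and 4.50 in FVB PBS arrays. It had 5.61, 5.96 and 6.24 in C57 CBE arrays, against 4.63, 4.68 and 4.59 in C57 PBS arrays. The PBS groups were alike and the C57 CBE arrays lay above all others. Ddx58 rose by 1.31 in C57, against 0.45 in FVB (adjusted p = 0.291), and the difference of -0.86 did not pass (adjusted p = 0.376). Ifih1 (MDA5) rose in both, by 0.91 in FVB and 1.66 in C57. Ifi204 and Ifi205, members of the DNA-sensing family, rose by 1.59 and 1.01 in C57, against 0.20 and -0.10 in FVB.

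Of 17 interferon signalling genes 1 rose in FVB, Irf7, and 3 in C57, Irf7, Irf9 and Stat2, with a median difference of -0.015. Irf7, a master transcription factor of interferon genes, rose by 1.25 in FVB and 1.89 in C57. Irf9 rose by 1.34 in C57, against 0.66 in FVB, and Stat2 by 0.97 in C57, against 0.51 in FVB, neither FVB value passing. At an unadjusted p under 0.05 by limma, 6 of the 17 had a positive change in FVB and 6 in C57. Over all genes these shares were 3.29% and 3.46%. Of 12 interferon-induced GTPases 4 rose in each strain, and the median difference was 0.047. Gbp10 rose by 2.03 in FVB (7.46, 6.87 and 6.30 in CBE arrays, against 4.65, 4.58 and 5.32 in PBS arrays). In C57 its change of 0.97 did not pass (5.25, 5.52 and 5.95 in CBE arrays, against 4.45, 4.66 and 4.72 in PBS arrays). Its difference of 1.06 did not pass (adjusted p = 0.817), and FVB CBE array 1, the highest for Gbp10, was also the highest for Cxcl9 and H2-Ab1.

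**Figure D3:**
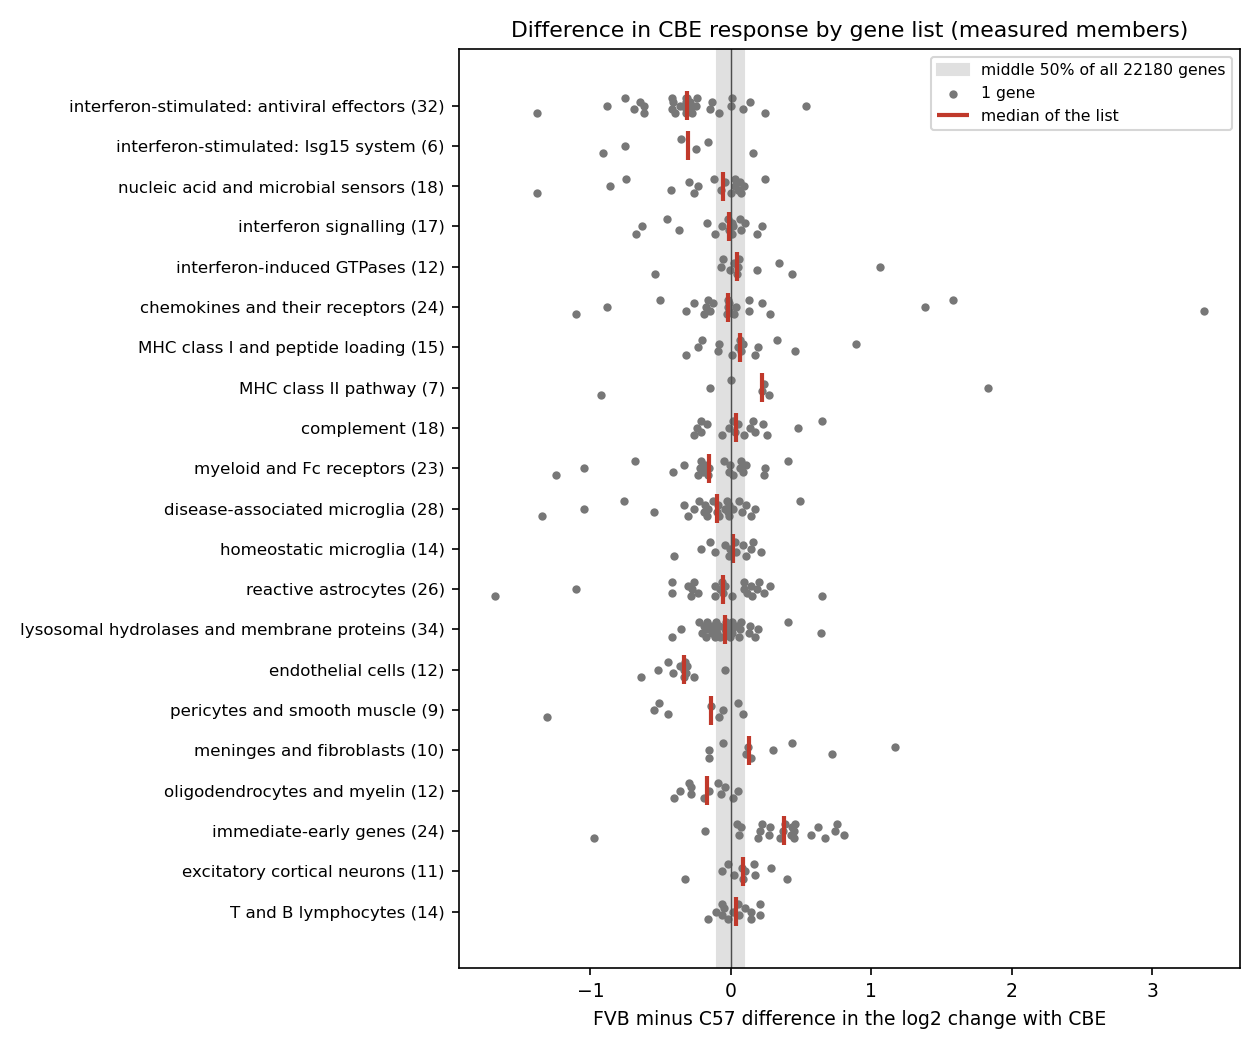
Difference in change (FVB minus C57, log2, horizontal axis) of each measured gene of 21 lists (points), with the list median marked and the middle 50% of all 22180 genes shaded. The medians furthest to the left are those of endothelial markers, antiviral effectors and the Isg15 system at -0.333, -0.315 and -0.304, and that furthest to the right is of immediate-early genes at 0.377. Medians of other lists also lie outside the shading, such as myeloid and Fc receptors at -0.153 and the MHC class II pathway at 0.222.

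Of 15 class I and peptide-loading genes 3 rose in each strain, and the median difference was 0.065. B2m, the class I light chain, had a log2 signal of 11.51, 11.40 and 11.01 in FVB CBE arrays, against 9.88, 9.65 and 9.45 in FVB PBS arrays. It had 11.98, 11.98 and 11.73 in C57 CBE arrays, against 11.12, 11.12 and 11.20 in C57 PBS arrays. B2m was higher in C57 than in FVB under either treatment, 2.79-fold in mice given PBS. It rose by 1.65 in FVB and 0.75 in C57, and the difference of 0.89 did not pass (adjusted p = 0.376). H2-Ab1, a class II chain, had 8.39, 6.22 and 5.53 in FVB CBE arrays, against 5.12, 4.40 and 4.72 in FVB PBS arrays, and between 3.91 and 4.37 in all C57 arrays. Its FVB change of 1.96 did not pass (adjusted p = 0.226), nor did the difference of 1.83 (adjusted p = 0.849). Ifi30, a lysosomal thiol reductase of the class II pathway, rose by 1.56 in C57, against 0.63 in FVB.

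Of 28 disease-associated microglia genes 5 rose in FVB and 9 in C57, with a median difference of -0.096, whereas 0 of 14 homeostatic microglia genes were called in either strain by limma. Of the homeostatic genes, 3 in FVB and 3 in C57 had a positive change at an unadjusted p under 0.05, against 3.29% and 3.46% of all genes. An ordinary linear model also called 0 of the homeostatic genes. At the same unadjusted p, 11 of the disease-associated genes had a positive change in FVB and 17 in C57. Clec7a, the receptor dectin-1, had a log2 signal of 3.95, 3.92 and 3.81 in FVB CBE arrays, against 3.60, 3.78 and 3.67 in FVB PBS arrays. It had 4.39, 4.94 and 5.40 in C57 CBE arrays, against 3.53, 3.65 and 3.78 in C57 PBS arrays. All 6 FVB arrays lay below the median of all probe sets, while C57 CBE arrays stood above them. Clec7a rose by 1.26 in C57, against 0.21 in FVB that did not pass, and the difference was -1.05 (adjusted p = 0.53). Cd68, a lysosomal protein of macrophages, rose by 0.76 in FVB and 0.78 in C57, with a difference of -0.03 (95% interval -0.34 to 0.28).

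Myeloid and Fc receptors had 3 of 23 genes raised in FVB and 8 in C57, with a median difference of -0.153, which was -0.026 without C57 CBE array 3, -0.088 without FVB CBE array 1, -0.089 without FVB PBS array 1 and -0.101 without FVB PBS array 2. At an unadjusted p under 0.05 by limma, 10 of the 23 had a positive change in FVB and 12 in C57. Over all genes these shares were 3.29% and 3.46%. An ordinary linear model called 0 of the 23 in FVB and 2 in C57. Lilrb4a, an inhibitory receptor, rose by 1.80 in FVB and 3.04 in C57. Cybb, the NADPH oxidase subunit of phagocytes, rose by 1.32 in FVB and 2.0 in C57. Cd180, a Toll-like receptor relative, rose by 1.39 in C57, against 0.63 in FVB that did not pass. Of 18 measured complement genes 6 rose in FVB and 4 in C57, with a median difference of 0.04. C1qb, a chain of C1q, rose by 1.42 in FVB and 0.94 in C57. Serping1, the C1 inhibitor, rose by 0.68 in FVB, against 0.03 in C57, and its difference of 0.65 did not pass (adjusted p = 0.469).

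Reactive astrocyte genes rose in 3 of 26 cases in FVB and 5 in C57, with a median difference of -0.059. At an unadjusted p under 0.05 by limma, 13 of the 26 had a positive change in FVB and 12 in C57. Over all genes these shares were 3.29% and 3.46%. Gfap, the intermediate filament of astrocytes, rose by 1.32 in FVB and 1.43 in C57, with a difference of -0.11 (95% interval -0.52 to 0.30). Astrocyte markers as a whole averaged 9.43 to 9.46 in FVB CBE, 9.39 to 9.55 in FVB PBS, 9.42 to 9.53 in C57 CBE and 9.47 to 9.51 in C57 PBS arrays. Lysosomal genes rose in 4 of 34 cases in each strain, with a median difference of -0.04. Man2b1, lysosomal alpha-mannosidase, rose by 0.76 in FVB, against 0.12 in C57. Ctss, cathepsin S, rose by 1.35 in FVB and 0.94 in C57, and Ctsh, cathepsin H, by 0.51 in C57, against 0.10 in FVB. Of 20 glycosphingolipid genes 0 were called in either strain by limma or by the ordinary model. At an unadjusted p under 0.05 1 of the 20 had a negative change in FVB, against 3.68% of all genes, and 0 changed in C57. Ugcg, glucosylceramide synthase, and Gba2, the non-lysosomal glucosylceramidase, had differences of 0.08 and 0.07.

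All 12 endothelial markers had a negative difference, with a median of -0.333, and in 8 of them every FVB change lay below every C57 change. Over all genes 11052 of 22180 had a negative difference and 10.9% were separated in this way. No endothelial marker passed by limma or the ordinary model in FVB, in C57 or for the difference. At an unadjusted p under 0.05, 3 had a negative change in FVB (3.68% of all genes), 4 a positive change in C57 (3.46%) and 6 a negative difference (2.96%). The mean log2 signal of these markers was 7.0 to 7.14 in FVB CBE, 7.02 to 7.40 in FVB PBS, 7.45 to 7.55 in C57 CBE and 7.22 to 7.30 in C57 PBS arrays. The C57 CBE arrays thus lay above all C57 PBS arrays, while the FVB groups overlapped. FVB PBS array 1 was the highest of its group for endothelial markers at 7.40, as for pericyte and smooth muscle markers at 6.37. Without it, a step added after seeing the data, the endothelial median difference was -0.296, with 11 of 12 negative and 2 at an unadjusted p under 0.05. That last count was also 2 without FVB CBE array 3, C57 CBE array 1 or C57 PBS array 3, and 3 without FVB PBS array 2. Kdr, the main VEGF receptor, had a log2 signal of 7.62, 7.67 and 7.43 in FVB CBE arrays, against 8.22, 8.08 and 7.68 in FVB PBS arrays. It had 7.81, 7.36 and 7.59 in C57 CBE arrays, against 7.35, 7.32 and 7.42 in C57 PBS arrays. Its changes of -0.42 in FVB and 0.22 in C57 did not pass (difference -0.64, adjusted p = 0.767). Cldn5, a tight junction protein, had changes of -0.39 in FVB and 0.13 in C57. In bulk cortex, fewer cells of a type and less RNA per cell cannot be told apart, and how much vessel each slice held was not tested.

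Among 9 pericyte and smooth muscle markers 7 had a negative difference, with a median of -0.139, which was -0.288 without C57 CBE array 1. Acta2, smooth muscle actin, had a log2 signal of 5.75, 5.45 and 5.18 in FVB CBE arrays, against 6.30, 5.62 and 5.80 in FVB PBS arrays. It had 7.30, 6.92 and 7.21 in C57 CBE arrays, against 6.52, 6.31 and 6.02 in C57 PBS arrays. Its changes of -0.45 in FVB and 0.86 in C57 did not pass (adjusted p = 0.649 and 0.075), and its difference was -1.31 (adjusted p = 0.376). Myh11, smooth muscle myosin, rose by 0.52 in C57, with 4.92, 4.92 and 4.95 in C57 CBE arrays, against 4.38, 4.36 and 4.48 in C57 PBS arrays. The list mean was 6.00 to 6.10 in FVB CBE, 6.14 to 6.37 in FVB PBS, 6.17 to 6.34 in C57 CBE and 6.08 to 6.10 in C57 PBS arrays.

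Meningeal and fibroblast markers had a median difference of 0.131, and 0 of 10 passed by limma or the ordinary model in either strain or for the difference. At an unadjusted p under 0.05, 2 had a negative change in FVB (3.68% of all genes), 3 a negative change in C57 (3.3%) and 2 a positive difference (2.5%). The median was 0.054 without C57 CBE array 3, 0.083 without FVB PBS array 1, 0.203 without FVB PBS array 3 or C57 PBS array 3, 0.197 without FVB CBE array 2 and 0.23 without C57 CBE array 1. Ptgds, a prostaglandin synthase abundant in meninges, had 10.73, 10.74 and 11.20 in FVB CBE arrays, against 10.51, 10.69 and 10.72 in FVB PBS arrays. It had 10.65, 9.72 and 8.90 in C57 CBE arrays, against 10.47, 10.77 and 10.78 in C57 PBS arrays, so that the C57 CBE arrays were spread over more than 1 log2 unit. The list mean was 5.80 to 6.02 in FVB CBE, 5.85 to 6.08 in FVB PBS, 5.10 to 5.71 in C57 CBE and 5.69 to 5.74 in C57 PBS arrays. The part of tissue makeup in the differences above was not tested.

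**Figure D4:**
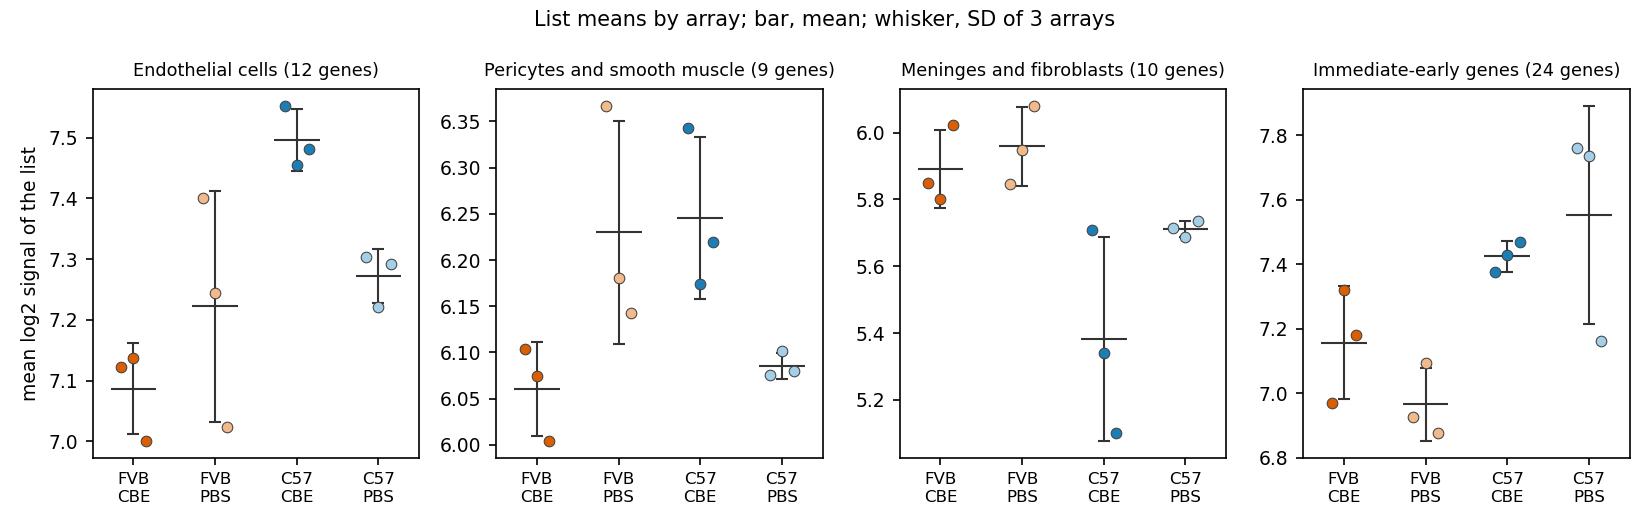
Mean log2 signal of the measured markers of endothelial cells, of pericytes and smooth muscle, of meninges and fibroblasts, and of immediate-early genes on each of the 12 arrays (points), with the mean (bar) and SD of the 3 arrays of a group (whisker), in the order FVB CBE, FVB PBS, C57 CBE, C57 PBS. Endothelial markers are highest in C57 CBE at 7.45 to 7.55, against 7.22 to 7.30 in C57 PBS, and meningeal markers spread from 5.10 to 5.71 in C57 CBE.

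Immediate-early genes, which neurons switch on with activity or handling, had a positive difference in 22 of 24 cases, with a median of 0.377. In 12 every FVB change lay above every C57 change (10.8% of all genes), and in 1 below (10.9%), and 11128 of 22180 genes had a positive difference. None passed by limma or the ordinary model in FVB, in C57 or for the difference. At an unadjusted p under 0.05, 3 had a positive change in FVB (3.29% of all genes), 2 a negative change in C57 (3.3%) and 6 a positive difference (2.5%). That last count was 15 without C57 PBS array 3, 2 without FVB PBS array 3, and 3 without FVB CBE array 2, C57 CBE array 2, C57 PBS array 1 or C57 PBS array 2. The median was 0.587 without C57 PBS array 3 and 0.237 without FVB CBE array 2. Nr4a1, a nuclear receptor, had a log2 signal of 8.64, 9.45 and 9.16 in FVB CBE arrays, against 8.55, 8.70 and 8.53 in FVB PBS arrays. It had 9.52, 9.41 and 9.67 in C57 CBE arrays, against 9.92, 10.12 and 9.36 in C57 PBS arrays. CBE and PBS arrays overlapped within each strain, and its changes of 0.49 in FVB and -0.27 in C57 did not pass. The list mean was 6.97 to 7.32 in FVB CBE, 6.88 to 7.09 in FVB PBS, 7.37 to 7.47 in C57 CBE and 7.16 to 7.76 in C57 PBS arrays, where C57 PBS array 3 stood apart as the lowest. In mice given PBS the FVB level of this list was below that of C57, with a median of -0.638 and 11 of 24 genes lower in FVB by limma, against 5.31% of all genes.

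The strain contrast in mice given PBS was broader than the difference in response: 1802 genes (8.12%) differed, 625 (2.82%) higher and 1177 lower in FVB. That count was 1047 without C57 PBS array 1 and 1170 without C57 PBS array 2. Quantile normalization gave 770 higher and 1029 lower in FVB in mice given PBS. In mice given CBE 1703 genes (7.68%) differed, 493 (2.22%) higher and 1210 (5.46%) lower in FVB, and quantile normalization gave 693 higher and 890 lower. That count was 1120 without FVB CBE array 3, 1130 without C57 CBE array 1 and 1024 without C57 CBE array 2. Serpina3n signal was 7.99-fold higher in FVB than in C57 mice given PBS, and that of Bst2 and B2m was 3.64-fold and 2.79-fold higher in C57 than in FVB mice given PBS. The probes were designed to 1 strain, and how far sequence differences under them alter the signal of the other strain was not tested. This limit holds for every level compared between strains here. Whether it also alters the size of a change, and so the difference in change, was not tested.

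Other genes named by rank had differences that did not pass. Akr1c18, an aldo-keto reductase that inactivates progesterone, had 7.90, 7.64 and 7.38 in FVB CBE arrays, against 6.83, 6.04 and 6.74 in FVB PBS arrays, and 6.21 to 6.56 in C57 CBE arrays, against 6.49 to 6.68 in C57 PBS arrays. It rose by 1.11 in FVB, against -0.17 in C57, with a difference of 1.27 (adjusted p = 0.376). Scnn1a, an epithelial sodium channel subunit, rose by 0.70 in FVB, against -0.07 in C57. Depp1, an autophagy regulator, rose by 1.02 in C57, against -0.22 in FVB. Tie1, an endothelial receptor, had changes of -0.38 in FVB and 0.37 in C57 that did not pass, with a difference of -0.76.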

How the data were processed

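RNA from the cortex of FVB and C57 mice was measured on Affymetrix arrays, labelled from 100 ng RNA with the WT PLUS kit per the labels' protocols. Partek and RMA are named in the submitters' processing notes; for their versions, the order of steps and the genome build, nothing was given in the sources used here. The authors deposited log2 values for 41034 probe sets. That these are logarithms to base 2 was inferred: the top value of 14.09 is 17442 as a power of 2 and 1316253 as a power of e. Scanner files were not used here.

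Gene symbols are those of the platform annotation and may be outdated: 23521 probe sets had 1 symbol, 1814 several and 15699 none given. For 1082 genes with several probe sets the brightest by mean was kept, leaving 22180 genes with no filter on dim probe sets. Promoters came from RefSeq (GRCm38.p6), in which 135 of 171 named genes had one.

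Tests used limma 3.58.1 in R 4.3.3 with 1 mean per group over the 12 arrays (8 residual and 5.22 prior degrees of freedom). All were two-sided, with Benjamini-Hochberg adjustment over 22180 genes within a contrast and a threshold of 0.05. The contrasts were the difference in change, the change in each strain, and FVB minus C57 in mice given PBS and in mice given CBE. With 3 arrays a group, the 4 groups shared 1 estimate of the spread. Arrays carry no count of molecules, and their number limits the precision. The change of a CBE array is its value minus the mean of its strain's PBS arrays. Alternatives were the arrays sharing the spread, 2 other scalings, 2 filters on dim genes, 3 other variance models, 2 treatments of several probe sets, replicate blocks, and leaving out each array.

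Named genes were up to 12 a direction called for the difference, the 8 a direction with its smallest p, the 8 a direction with its largest size among genes called in either strain, up to 4 a list with its smallest p, and others picked by name (such as Gfap, Ifit1 and Mmrn1), leaving out predicted genes. Cxcl9, Kirrel2, Nup133 and Dennd2a were added after their values were seen. The comparison, the 41 gene lists (609 of 670 entries measured) and the rule were chosen with earlier results of these data known. The erythroid list had 1 measured member and the mitochondrially encoded list 0, and neither is described. Some genes are not analysed here.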

Additional observations from a re-analysis of the deposited data

Results flagged for a closer look

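The difference between FVB and C57 in the change with CBE passed the test of the difference itself for Cxcl11 (1.38 on the log2 scale, larger in FVB) and for Cxcl13 (3.37, larger in FVB). The groups of 3 arrays are too small for a test of single outlying samples.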

How the results depend on the processing

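For the difference in change, 1 gene was called with 24 arrays sharing the spread (Cxcl13, with Cxcl11 at an adjusted p of 0.318 by limma), 4 when C3H CBE array 1 was left out of those 24 (Serpina3n and Gpnmb added), and 1 in an ordinary linear model (Cxcl11, with Cxcl13 at 0.317). C3H CBE array 1 was left out because it was known from an earlier account of these data to stand apart from its replicates. Leaving out each FVB or C57 array in turn gave 2 to 6 for the difference. For CBE minus PBS in FVB the count of 61 was 30 with 24 arrays, 10 in the ordinary model and 29 to 73 without an array. In C57 the count of 107 was 25 in the ordinary model and 67 to 128 without an array. For FVB minus C57 it was 1047 to 1793 without an array in mice given PBS, and 1041 in the ordinary model and 1024 to 1726 without an array in mice given CBE. Without an array the difference ranged over 0, with no call, for Gfap (-0.237 to 0.015), Cd68 (-0.125 to 0.046), Ccl5 (-0.307 to 0.523) and Mmrn1 (-0.077 to 0.038). The cause was not tested. The other scalings, filters and variance models kept these counts within 1.5 times. With every probe set that had 1 symbol kept, 3 probe sets passed for the difference. Beside those of Cxcl13 and Cxcl11 this was a probe set of Dennd2a, with a negative difference (-0.81, adjusted p = 0.0403 by limma). Same-numbered arrays of different groups had correlations of -0.077 to 0.196 over 18 pairs, 5 of them over 0.1, so the numbers were not taken as pairs. With the replicate number as a block the counts were 2 for the difference, 60 in FVB, 117 in C57, 1865 in mice given PBS and 1804 in mice given CBE; with a block within strain they were 3 (Serpina3n added), 66 and 116. Low signal, as for Gpnmb and Clec7a in FVB, limits how small a change can be seen. Signal was also low in C57 PBS arrays, at 4.10 to 4.29 for Gpnmb and 3.53 to 3.78 for Clec7a.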

Other observations

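Cell cycle genes, which mark dividing cells, had a negative difference in 21 of 22 cases, with a median of -0.141. Over all genes 11052 of 22180 were negative. In 7 every FVB change lay below every C57 change (10.9% of all genes), and in 0 above (10.8%). Their mean log2 signal was 4.17 to 4.20 in FVB CBE, 4.18 to 4.22 in FVB PBS, 4.25 to 4.27 in C57 CBE and 4.11 to 4.15 in C57 PBS arrays, near the median of all probe sets. None passed by limma or an ordinary linear model in either strain or for the difference. At an unadjusted p under 0.05, 1 had a negative change in FVB, 6 a positive change in C57 and 3 a negative difference, against 3.68%, 3.46% and 2.96% of all genes. Plk1, a mitotic kinase, had a difference of -0.36 (adjusted p = 0.783).

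Heat shock and endoplasmic reticulum chaperones had a positive difference in 15 of 19 cases, with a median of 0.102, and averaged 7.99 to 8.01 in FVB CBE, 7.91 to 7.99 in FVB PBS, 7.93 to 7.96 in C57 CBE and 7.98 to 8.01 in C57 PBS arrays. Hspa5, the chaperone BiP, had a difference of 0.22, and no gene of this list passed by limma or the ordinary model in either strain. At an unadjusted p under 0.05, 3 had a positive change in FVB, 3 a negative change in C57 and 2 a positive difference, against 3.29%, 3.3% and 2.5% of all genes. Glucocorticoid-responsive genes had a median difference of 0.152, which was 0.03 without FVB PBS array 2 and 0.081 without C57 PBS array 1, and in mice given PBS 7 of 13 were lower in FVB by limma, against 5.31% of all genes.

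Markers of other cell types had a median difference of -0.173 for oligodendrocytes and myelin, -0.167 for oligodendrocyte precursors, 0.089 for excitatory neurons, 0.086 for inhibitory interneurons, 0.071 for perivascular macrophages, 0.035 for lymphocytes and 0.015 for monocytes and neutrophils. The sign for oligodendrocytes and myelin turned without C57 CBE array 2 (0.129) or C57 PBS array 3 (0.092), and FVB PBS array 1 was the highest of its group for this list at 9.18. For tissue beside the cortex the median was -0.245 for striatum, -0.032 for thalamus, -0.051 for hippocampus and 0.006 for choroid plexus and ependyma. Striatal markers averaged 5.47, 5.47 and 5.52 in FVB CBE arrays, 6.24, 5.53 and 5.48 in FVB PBS arrays, 5.62, 5.73 and 5.47 in C57 CBE arrays and 5.81, 5.67 and 5.57 in C57 PBS arrays. FVB PBS array 1 stood apart, and without it the striatal median was 0.106. Genes of cholesterol biosynthesis had a negative difference in 15 of 17 cases, with a median of -0.115, which was -0.072 without FVB CBE array 1 and -0.043 without FVB PBS array 1.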
